A study of Mus musculus with 30 samples.

Results

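The 10 genes described here are S100a8, S100a9, Lcn2, Ltf, Ngp, Camp, Wfdc21, Lrg1, Cd177 and Mmp8, which encode S100 proteins and contents of the secondary granules of neutrophils, or proteins known from the same cells. All 10 were taken by symbol from a table of 37991 gene identifiers, of which 20439 held any count, and each symbol matched 1 identifier. Of the 10, 9 passed the filter on low counts that left 11030 genes for testing, and Ltf did not. The genes were chosen by name with their levels and fold changes in these same libraries in view, and which of those values picked each one is not recorded. Their levels and differences are therefore given as a description, and adjusted p-values are printed only for other genes. Where the text counts how many of the 10 passed the threshold, in any comparison or alternative fit, the count describes these libraries and is no independent test. Shares of all genes are given only for the edgeR fit over all 5 groups at the adjusted threshold. Counts at an unadjusted p or in an alternative fit stand without such a share, and nothing is read from them.

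RNA was measured in 30 libraries, each made from 500 sorted spleen cells of 1 female mouse, and the mice were 9.4 to 15.7 weeks old. TLR7.1 mice overexpress Tlr7, which encodes a sensor of single-stranded RNA in endosomes. They gave inflammatory hemophagocytes (TLR7.1 iHPC), red pulp macrophages (TLR7.1 RPM) and Ly6C-high monocytes (TLR7.1 Mono), and the wild-type B6 mice gave the last 2 populations (WT RPM and WT Mono). Every group held 6 libraries from 6 mice, all 3 TLR7.1 populations came from the same 6 mice, and both WT populations from the other 6. No iHPC were taken from WT mice, so that population has no wild-type counterpart. The gates required live CD45.2+ cells and left out SiglecF+ and Ly6G+ cells, and Ly6G is the usual surface mark of mouse neutrophils. Monocytes were gated on Ly6C, Ccr2 and CD11b. RPM were Ly6C-, CD31low, VCAMhi and F4/80+ with absent or intermediate CD11b, whereas iHPC were Ly6C-, CD31hi, VCAMlow and F4/80low with CD11b present. The construct behind the Tlr7 overexpression and the strain background of the TLR7.1 line are not stated in the sources used here.

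Neutrophils fill their granules in order as they mature in the bone marrow. Primary granule proteases such as neutrophil elastase and myeloperoxidase are made first, secondary granule proteins such as lactoferrin, lipocalin 2, cathelicidin and neutrophilic granule protein are made next under control of the transcription factor C/EBPε, and gelatinase follows. S100A8 and S100A9 pair as calprotectin, a calcium-binding and metal-sequestering complex of the cytosol that is abundant in neutrophils and also made by monocytes, and that can signal through TLR4 when released. Lipocalin 2 binds bacterial siderophores, lactoferrin binds iron, and cathelicidin is cleaved to an antimicrobial peptide.

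The data came with uneven depth. Total counts per library ran from 292507 to 1420486 in TLR7.1 iHPC, from 268275 to 1257240 in TLR7.1 RPM, from 95002 to 1511480 in WT RPM, from 1157446 to 1719010 in TLR7.1 Mono and from 1209266 to 1932427 in WT Mono. Levels are in normalised CPM, CPM being counts scaled to a common library size after TMM normalisation. A gene with no count in any of the 6 libraries of a group has an upper limit of 0.487 CPM in TLR7.1 iHPC, 0.665 in TLR7.1 RPM, 0.825 in WT RPM, 0.323 in TLR7.1 Mono and 0.330 in WT Mono, the level of 3 counts over the group, which covers counting error only. Tlr7 was higher in every TLR7.1 library than in every WT library of the same population (adjusted p = 5.94e-06 in Mono and 2.6e-07 in RPM, edgeR). The 10 listed classical monocyte markers summed to 7094 to 8479 CPM in TLR7.1 Mono and 6008 to 8249 CPM in WT Mono, and to at most 1260 CPM elsewhere. The 10 red pulp macrophage markers summed to 6846 to 15138 CPM in TLR7.1 RPM and 9414 to 17589 CPM in WT RPM, and to at most 1768 CPM in any other library. In iHPC the basophil and mast cell list summed to 2918 to 5203 CPM in 5 libraries and to 142 CPM in mouse 24261, while no library of another group passed 42.8 CPM. Read density reached at most 0.808 reads per exonic base for a gene of the 10 (S100a9, TLR7.1 Mono of mouse 24261), 53.2% of the densest gene in that library.

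Across the groups the 10 genes fell into 3 patterns. Cd177 and Mmp8 were high in monocytes of both genotypes. S100a8, Lcn2, Wfdc21 and Lrg1 were high in the monocytes of all 6 TLR7.1 mice and low or absent in WT monocytes. S100a9, Ltf, Ngp and Camp were high in the monocytes of only some TLR7.1 mice. Lcn2 had 0 counts in all 12 RPM libraries, and Wfdc21 had 0 counts in all 12 WT libraries. The label of neutrophil-like genes is a statement about what these genes are known for. Among defining neutrophil markers, Ly6g, Cxcr2 and Mmp9 were at or near 0 in most libraries. Retnlg, however, reached 296 CPM in iHPC, and Csf3r was present in every group, as detailed further on. In sorted bulk samples, fewer cells that hold a transcript and less of it per cell cannot be told apart.

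**Figure D1:**
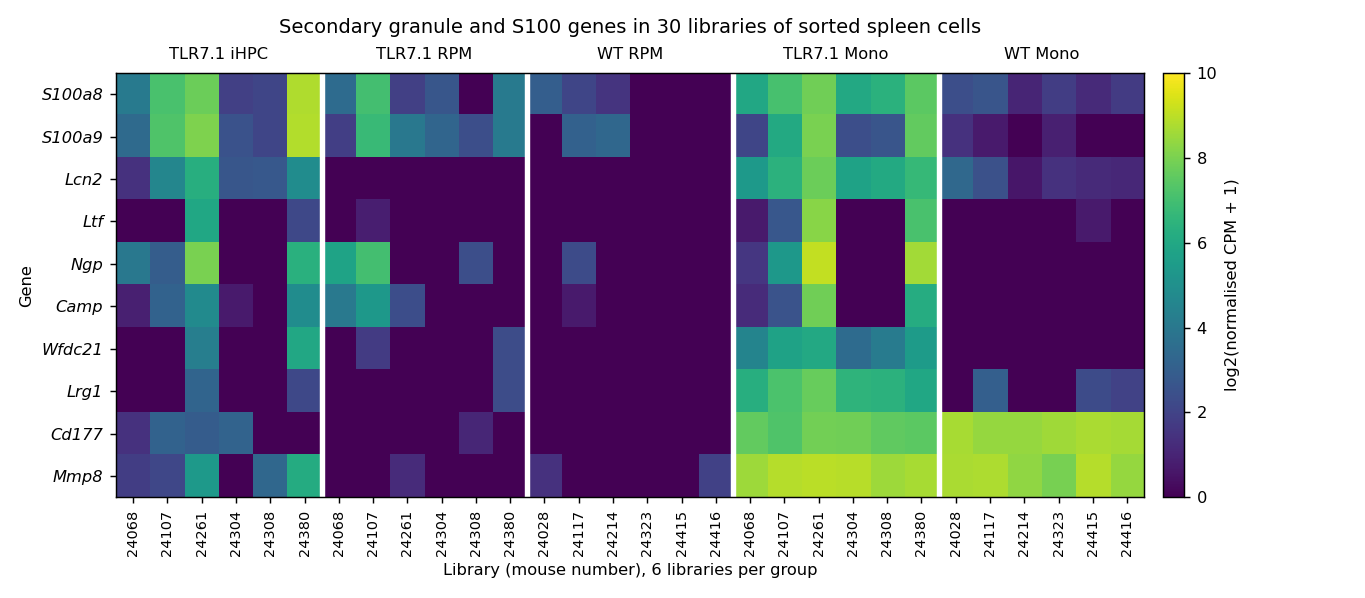
Colour gives log2(normalised CPM + 1) of the 10 genes (rows) in each of the 30 libraries (columns, by mouse number), with 6 libraries in each of the 5 groups. Cd177 and Mmp8 fill both monocyte blocks, S100a8, Lcn2, Wfdc21 and Lrg1 fill the TLR7.1 Mono block, and Ltf, Ngp and Camp are bright in single libraries.

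Some of the genes are neighbours. Camp, Ngp, Ltf and Mmp8 are on chromosome 9, and the start regions of Camp, Ngp and Ltf lie between 109849457 and 111019291 of that chromosome in GRCm38.p6. S100a8 and S100a9 are on chromosome 3, on opposite strands. Promoters from RefSeq (GRCm38.p6) were found for 9 of the 10 genes, and the 250 bases before the start are printed for 4 of them, S100a8 and Lcn2 as genes found in the monocytes of every TLR7.1 mouse and Ngp and Ltf as genes found in only some. Capitals mark matches to the C/EBP pattern TTNNGNAA on either strand, and in S100a8 also the TATA box TATAAA.
S100a8, chr3:90668821-90669070 plus strand: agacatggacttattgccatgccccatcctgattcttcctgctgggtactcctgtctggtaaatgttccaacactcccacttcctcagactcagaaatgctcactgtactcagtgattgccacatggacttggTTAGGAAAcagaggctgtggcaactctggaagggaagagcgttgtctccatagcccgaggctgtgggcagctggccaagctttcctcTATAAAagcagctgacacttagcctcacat
Lcn2, chr2:32387740-32387989 minus strand: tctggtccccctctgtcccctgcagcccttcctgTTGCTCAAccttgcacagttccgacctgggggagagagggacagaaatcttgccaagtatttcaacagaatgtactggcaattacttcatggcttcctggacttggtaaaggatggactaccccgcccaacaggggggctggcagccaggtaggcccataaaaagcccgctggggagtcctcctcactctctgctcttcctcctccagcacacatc
Ngp, chr9:110419558-110419807 plus strand: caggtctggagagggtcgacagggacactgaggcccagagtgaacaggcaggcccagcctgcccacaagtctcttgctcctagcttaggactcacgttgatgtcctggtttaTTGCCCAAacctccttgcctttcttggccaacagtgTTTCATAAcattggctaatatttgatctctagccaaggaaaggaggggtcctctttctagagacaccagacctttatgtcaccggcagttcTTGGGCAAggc
Ltf, chr9:111019042-111019291 plus strand: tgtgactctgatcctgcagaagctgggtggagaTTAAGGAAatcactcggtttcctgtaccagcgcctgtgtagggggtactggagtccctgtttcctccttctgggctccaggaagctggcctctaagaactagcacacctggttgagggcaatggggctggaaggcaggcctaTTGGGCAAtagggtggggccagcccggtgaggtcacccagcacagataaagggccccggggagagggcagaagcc
The C/EBP pattern was found in 7 of the 9 windows, all but Camp and Lrg1, and in 36.8% of all 32851 RefSeq windows of the same length. Ngp held 3 matches, the largest number among the 9 windows. The TATA box was found in 2 of the 9, S100a8 and Cd177, and in 12.4% of all windows. GAGGAA, the core bound by ETS factors such as PU.1, was found in 5 of the 9 and in 23.3% of all windows, and the STAT pattern TTCNNNGAA in 0 of the 9 and in 7.02% of all windows. Both strands were searched for each pattern, overlapping matches were kept, and these matches describe letters in the window.

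S100a8 and S100a9 encode the subunits of calprotectin. In TLR7.1 iHPC, S100a8 ran from 2.68 CPM over a median of 78.4 to 443.7 CPM. In TLR7.1 RPM it ran from 0 over 7.89 to 127 CPM, against 0 over 0.900 to 6.88 CPM in WT RPM. In TLR7.1 Mono it ran from 63.5 over 108.5 to 228 CPM, against 1.03 over 2.43 to 5.23 CPM in WT Mono. So all 6 TLR7.1 monocyte libraries stood above all 6 WT ones, by a fitted log2 fold change of 5.47 ± 1.09 (SE), while the iHPC libraries overlapped both the Mono and the RPM libraries of the same mice.

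S100a9 followed S100a8 in iHPC but not in every monocyte library. Its TLR7.1 iHPC libraries ran from 3.27 over 81.0 to 458 CPM. Its TLR7.1 RPM libraries ran from 2.60 over 11.8 to 108 CPM, against 0 over 0 to 9.00 CPM in WT RPM. Among TLR7.1 Mono it stood at 253 CPM in mouse 24261, 194 in 24380 and 65.9 in 24107, and at 5.25, 4.24 and 3.31 CPM in mice 24308, 24304 and 24068, against 0 to 1.71 CPM in WT Mono. The groups of monocytes did not overlap, but 3 TLR7.1 libraries were within 5.25 CPM of 0, where S100a8 in the same 3 libraries was at 63.5 to 81.6 CPM. Per kilobase of exon, the median level in TLR7.1 Mono was 156 CPM for S100a8 and 68.1 for S100a9, and in TLR7.1 iHPC 113 for S100a8 and 155 for S100a9.

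Lcn2 encodes lipocalin 2, the siderophore-binding protein of secondary granules. It ran from 1.69 over 14.5 to 76.8 CPM in TLR7.1 iHPC and had no count in any TLR7.1 RPM library. In TLR7.1 Mono it ran from 41.0 over 75.7 to 213 CPM, against 0.515 over 1.48 to 9.41 CPM in WT Mono. Every TLR7.1 monocyte library was above every WT one (log2 fold change 4.94 ± 0.791). Every iHPC library held Lcn2. The pooled 129 counts in iHPC, against 0 in TLR7.1 RPM, put iHPC at least 31.4-fold higher than RPM. Of these 129 counts, 91 were in mice 24261 and 24380, most of them in 24261.

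Wfdc21 encodes a small secreted protein with a WAP domain, and Lrg1 a leucine-rich glycoprotein that can bind TGF-β receptor complexes. Wfdc21 was at 63.4 CPM in iHPC of mouse 24380 and 18.5 CPM in iHPC of mouse 24261, with no count in the other 4 iHPC libraries. In TLR7.1 Mono it ran from 10.3 over 33.0 to 65.3 CPM, against no count in WT Mono, at least 106-fold higher. Lrg1 reached 8.33 CPM in iHPC, with 4 libraries at 0, and 3.99 CPM in TLR7.1 RPM, with 5 libraries at 0. In TLR7.1 Mono it ran from 61.3 over 87.1 to 204 CPM, against 0 over 1.47 to 7.19 CPM in WT Mono (log2 fold change 5.45 ± 0.777). Neither gene's TLR7.1 monocyte libraries overlapped the WT ones, and Lrg1 was lower in all 6 iHPC libraries than in all 6 TLR7.1 Mono libraries (log2 fold change -5.91 ± 0.849).

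Ltf, Ngp and Camp, which encode lactoferrin, neutrophilic granule protein and the cathelicidin precursor, were the most uneven. In TLR7.1 Mono, Ngp was at 536 CPM in mouse 24261, 389 in 24380, 38.8 in 24107 and 1.98 in 24068, with no count in mice 24304 and 24308, against no count in any WT Mono library. Ltf took the same order, with 298 CPM in mouse 24261, 139 in 24380, 5.54 in 24107, 0.661 in 24068 and no count in the other 2, against 1 count in 1 WT Mono library. Camp was at 224 CPM in mouse 24261 and 71.2 in 24380, at 4.92 and 1.32 CPM in mice 24107 and 24068, and at no count in 24304 and 24308, against no count in WT Mono. All 3 genes thus overlapped the WT libraries at 0, although the pooled counts were 662 for Ltf in TLR7.1 Mono, against 1 in WT Mono, a 649-fold ratio with an exact 95% interval of 116 to 25682. Ngp was at least 455-fold and Camp at least 151-fold higher over the pooled TLR7.1 Mono libraries than in WT Mono. These ratios rest on mice 24261 and 24380, which held most of the counts.

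The same genes were seen in macrophages and iHPC of some mice. In iHPC, Ngp was at 256 CPM in mouse 24261, 81.0 in 24380, 15.2 in 24068 and 6.65 in 24107 and at 0 in the other 2. Ltf was at 61.1 CPM in iHPC of mouse 24261 and 3.52 in 24380, with no count in the other 4 iHPC libraries. Camp was at 28.2 CPM in iHPC of mouse 24380 and 26.8 in 24261, and at most 7.76 CPM in the others. In TLR7.1 RPM the highest Ngp levels were 129 CPM in mouse 24107 and 54.7 in 24068, against at most 3.86 CPM in WT RPM, and the highest Camp levels, 39.5 and 15.6 CPM, were in the same 2 libraries. Ltf had 1 count in all TLR7.1 RPM libraries and none in WT RPM.

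Cd177 encodes a surface protein that neutrophils carry and also store in secondary granules, and Mmp8 neutrophil collagenase. Cd177 was at 152 to 233 CPM in TLR7.1 Mono, with a median of 189, against 341 to 428 CPM in WT Mono, with a median of 390. All 6 TLR7.1 libraries were below all 6 WT ones, a log2 fold change of -0.98 ± 0.254, so this gene was lower in TLR7.1 monocytes. Mmp8 ran from 367 over 439 to 498 CPM in TLR7.1 Mono, against 245 over 381 to 470 CPM in WT Mono, and these libraries overlapped (log2 fold change 0.22 ± 0.390). In iHPC Cd177 did not pass 8.05 CPM, and Mmp8 was at 70.4 CPM in mouse 24380, 40.7 in 24261 and at most 8.99 in the others. RPM held 1 count of Cd177 in TLR7.1 and none in WT mice, and 1 count of Mmp8 in TLR7.1 and 2 in WT mice.

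**Figure D2:**
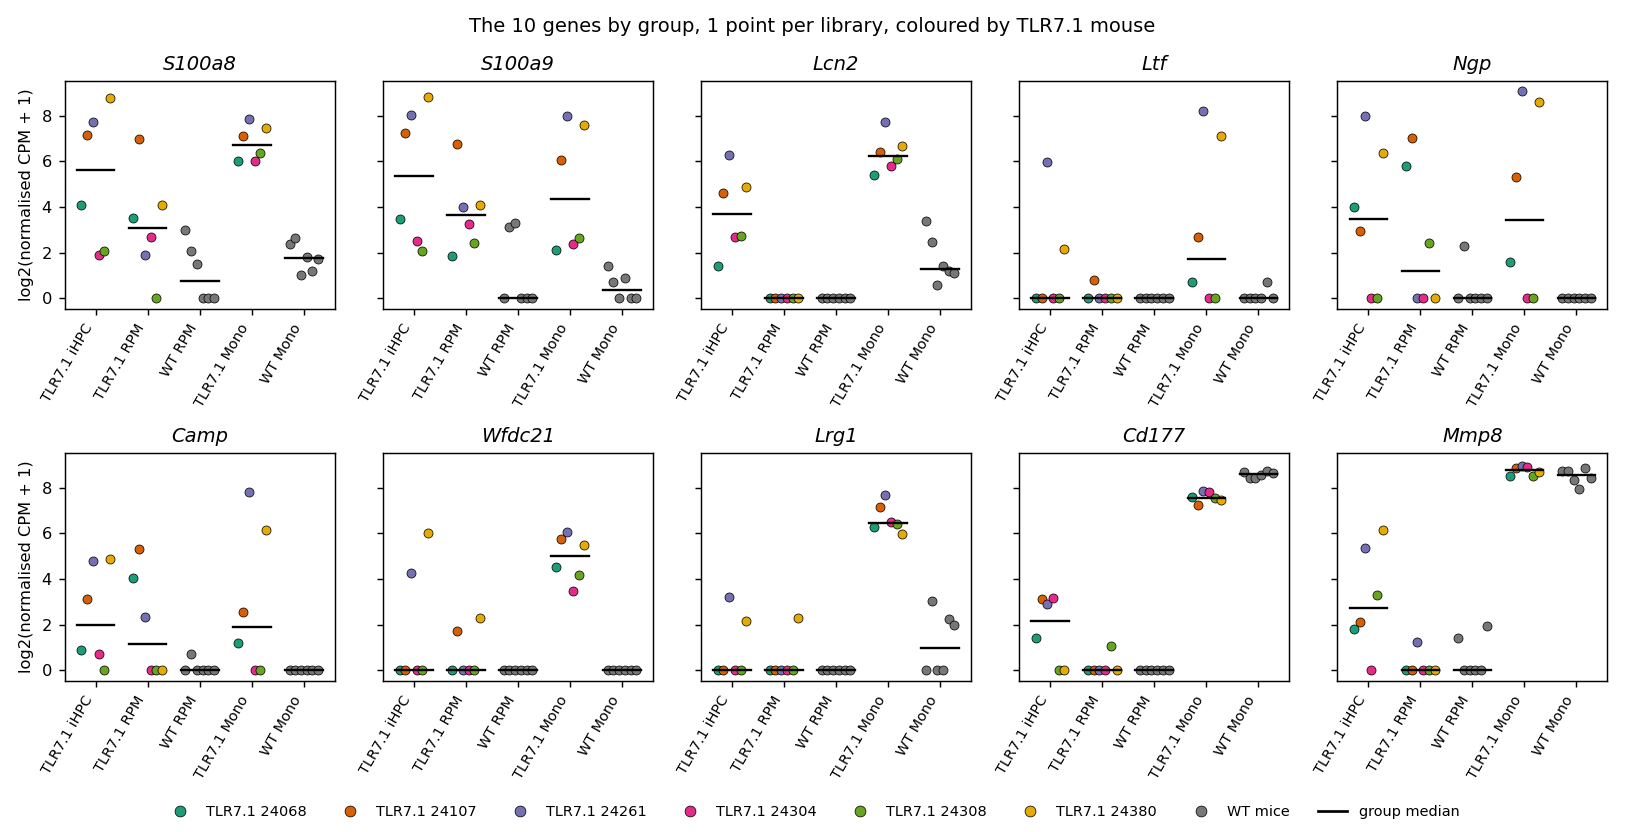
Each panel shows 1 gene, with 1 point per library on log2(normalised CPM + 1), the 5 groups along the axis, colours for the 6 TLR7.1 mice, grey for WT mice and a line at the group median. The points of mice 24261 and 24380 are the 2 highest for Ltf, Ngp and Camp in both TLR7.1 Mono and iHPC, and those of mouse 24107 lead S100a8, S100a9, Ngp and Camp in TLR7.1 RPM.

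The comparison of TLR7.1 Mono with WT Mono asks what the Tlr7 overexpression goes with in the same gated cell. Of the 9 fitted genes, 7 passed an adjusted p of 0.05 as higher in TLR7.1 Mono, where 1.8% of all 11030 genes did, and Cd177 passed as lower, where 0.299% did. For 5 of the 9 (S100a8, S100a9, Lcn2, Wfdc21 and Lrg1) all TLR7.1 libraries were above all WT libraries, as for 3.04% of all genes, and for Cd177 all were below, as for 1.13%. The median log2 fold change of the 9 was 5.47, beside -0.02 over all genes. Since these groups, like all others, were in view when the genes were chosen, nothing is read from these counts or from those of the comparisons that follow. With the mouse as a random block, 403 genes were called in place of 232. Of the 7 higher genes, S100a9, Ngp and Camp no longer passed. Throughout this text the random block was fitted by limma on log values, not by edgeR on counts, with a mouse correlation of 0.0474. Which part of a change comes with the block and which with the method was not tested. Leaving out 1 mouse at a time, Ngp lost its call in 7 of 12 fits, without any of 24028, 24117, 24214, 24323, 24380, 24415 and 24416, Camp without 24117, and Cd177 in 7 of 12, without any of 24028, 24068, 24107, 24261, 24323, 24415 and 24416.

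Mice were collected on 3 days, and the monocyte difference was there on each for S100a8, Lcn2, Wfdc21 and Lrg1. S100a8 averaged 99.4 CPM in TLR7.1 Mono on 13 December, against 4.75 CPM in WT Mono, then 72.9 against 2.51 CPM on 21 December and 202 against 1.55 CPM on 26 December. Lcn2 averaged 62.7 CPM in TLR7.1 Mono against 6.99 CPM in WT Mono on 13 December, 60.5 against 1.67 CPM on 21 December and 158 against 0.990 CPM on 26 December. Ngp averaged 20.4 CPM in TLR7.1 Mono on 13 December, 0 on 21 December and 462 on 26 December, with 0 in WT Mono on every day. S100a9 averaged 34.6, 4.74 and 223 CPM in TLR7.1 Mono on the 3 days, against 1.18, 0.836 and 0 CPM in WT Mono. Cd177 was lower in TLR7.1 Mono on each day, at 172 against 378 CPM in WT Mono on 13 December, 206 against 376 on 21 December and 206 against 392 on 26 December. Each day held 2 TLR7.1 mice, and 2, 1 and 3 WT mice. The 2 TLR7.1 mice with the highest Ltf, Ngp and Camp in monocytes are those of 26 December and the 2 with none are those of 21 December, so day and mouse cannot be told apart for these genes. Mouse 24261 was 12.4 weeks old and 24380 was 10 weeks old, and 24304 and 24308 were both 10.3 weeks old.

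The comparison of iHPC with monocytes of the same mice sets a phagocyte that engulfs blood cells against its Ly6C-high counterpart. Of the 9 fitted genes, Lcn2, Lrg1, Cd177 and Mmp8 passed as lower in iHPC, beside 19.4% of all genes, and none passed as higher, beside 19.3%. For Lrg1, Cd177 and Mmp8 all 6 iHPC libraries were below all 6 TLR7.1 Mono libraries, as for 17.8% of all genes, with log2 fold changes of -5.41 ± 0.355 for Cd177 and -4.79 ± 0.505 for Mmp8. Lcn2 averaged 23.5 ± 28.2 CPM (SD, n = 6) in iHPC and 93.6 ± 62.5 CPM in TLR7.1 Mono (log2 fold change -2.02 ± 0.674), with overlapping libraries, and its call was lost without mouse 24308 or 24380. S100a8 (0.06 ± 0.830) and S100a9 (0.71 ± 0.985) had log2 fold changes smaller than their SE. With the mouse as a fixed block Wfdc21 also passed as lower (log2 fold change -3.38), and with a random block S100a8 did too (-2.26). The median over the 9 genes was -2.02, beside 0.00 over all genes.

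The comparison of iHPC with RPM sets the 2 phagocytes of red cells of the same spleens side by side. Lcn2, Cd177 and Mmp8 passed as higher in iHPC, beside 13.6% of all genes, and none passed as lower, beside 13.5%. For Lcn2 alone of the 9 all iHPC libraries were above all TLR7.1 RPM libraries, as for 6.07% of all genes. Pooled counts were 28 for Cd177 in iHPC, against 1 in TLR7.1 RPM, a ratio of 20.5 (exact 95% interval 3.38 to 837), and 81 for Mmp8, against 1, a ratio of 59.2 (10.3 to 2368). S100a8 averaged 137 ± 174 CPM in iHPC and 26.9 ± 49.4 CPM in TLR7.1 RPM (SD, n = 6 each), a log2 fold change of 2.12 ± 0.899, and S100a9 differed by 2.33 ± 1.06. Neither passed, but without mouse 24107 both did, with 4.59 for S100a8 and 3.97 for S100a9, as did Wfdc21. With the mouse as a random block Cd177 no longer passed.

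**Figure D3:**
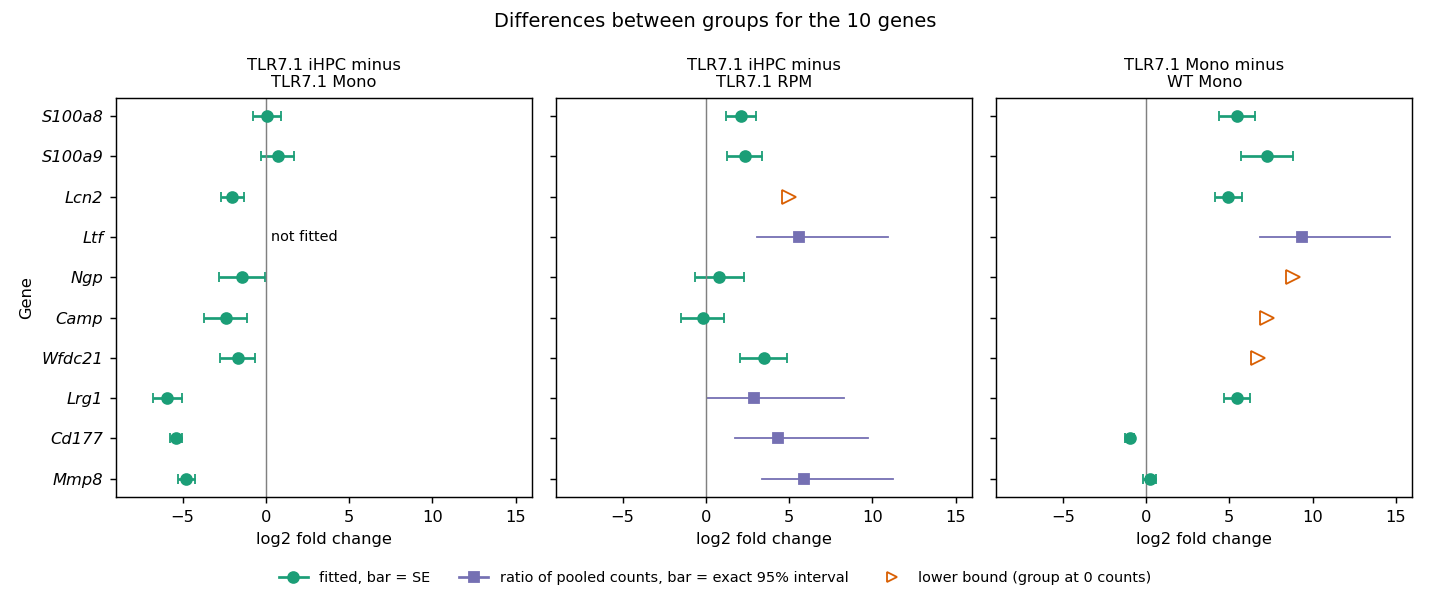
Log2 fold changes of the 10 genes in 3 comparisons. Circles are fitted values with their SE, squares are ratios of pooled counts with an exact 95% interval where 1 group held 1 to 3 counts, and open triangles are lower bounds where a group held no count. Values for TLR7.1 Mono minus WT Mono lie at 4.94 or above for the 8 genes other than Cd177 and Mmp8, and Ltf has no fitted value in the first panel, where pooled counts were 67 in iHPC and 662 in TLR7.1 Mono.

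In RPM the genotype comparison gave no call among the 9 fitted genes by edgeR. Of all genes, 8.25% were called in either direction, 4.48% as higher and 3.77% as lower. Lcn2, Lrg1, Cd177 and Mmp8 were at or under 3 counts in both RPM groups. Wfdc21 held 4 counts in TLR7.1 RPM and 0 in WT RPM. These genes could hardly be called here, so their missing calls say nothing about a difference, and the count cannot be set against that share. At an unadjusted p under 0.05 there were 2 of the 9, and DESeq2 called 1, S100a8. Neither count has a share of all genes beside it, and nothing is read from them. S100a8 averaged 26.9 ± 49.4 CPM in TLR7.1 RPM and 1.98 ± 2.73 CPM in WT RPM (log2 fold change 3.43 ± 1.32), with overlapping libraries, and S100a9 averaged 25.7 ± 40.5 CPM in TLR7.1 RPM and 2.79 ± 4.34 CPM in WT RPM (2.75 ± 1.42). With collection day as a term, S100a8, S100a9, Ngp and Camp passed as higher. The share of all genes called in that fit is not given here, and the shares above belong to the fit without that term. On 13 December S100a8 averaged 68.8 CPM in TLR7.1 RPM, against 5.05 CPM in WT RPM, and on 21 and 26 December 2.68 and 9.35 CPM, against 0 and 0.600 CPM. Most of this came from mouse 24107, whose RPM library held 127 CPM of S100a8, 108 of S100a9 and 129 of Ngp, and also 16.3 CPM of Elane, 6.20 of Prtn3, 15.5 of Fcnb and the highest Gfi1 count of any library, 29. Elane and Prtn3 had no count in the other 5 TLR7.1 RPM libraries. In what part the counts of these other genes bear on the S100a8 level of this library was not tested.

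Between RPM and monocytes of the same mice, 5 genes passed as lower in TLR7.1 RPM (Lcn2, Wfdc21, Lrg1, Cd177 and Mmp8), beside 22.6% of all genes, and 3 passed as lower in WT RPM (Lcn2, Cd177 and Mmp8), beside 22.5%. None passed as higher, beside 23.9% of all genes in TLR7.1 and 23.7% in WT mice. Lcn2 was at least 141-fold lower in TLR7.1 RPM than in TLR7.1 Mono. Mmp8 held 1 count in TLR7.1 RPM, against 4029 in TLR7.1 Mono, and 2 in WT RPM, against 3387 in WT Mono. S100a8 had a log2 fold change of -2.06 ± 0.885 and passed with the mouse as a fixed (-3.31) or random block (-3.71). The difference between the genotype effects of RPM and Mono gave no call among the 9 genes by edgeR, beside 0.689% of all genes, with 0 at an unadjusted p under 0.05 and 1, Lcn2, by DESeq2. With the mouse as a random block Lcn2, Wfdc21 and Lrg1 passed in that comparison. These 3 held 0, 4 and 1 counts in TLR7.1 RPM and 0 in WT RPM, so their genotype effect in RPM could hardly be estimated. The edgeR SEs of their differences were 12823.7, 20080.2 and 29.1, so the missing edgeR calls say nothing about a difference. Their values still enter the medians of the difference given further on. The comparisons share control libraries and are not independent of each other.

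The 10 genes did not move as 1 block among the libraries of a group. After subtraction of group means, the log2 levels of Ngp and Camp had a Pearson correlation of 0.919 over the 30 libraries and those of S100a8 and S100a9 one of 0.804. S100a9 correlated at 0.759 with Ngp and at 0.797 with Camp, whereas Cd177 correlated at 0.015 with S100a9 and at -0.399 with Mmp8. Lrg1 was closest to Wfdc21, at 0.636. These libraries come from 12 mice and share depth between genes, so the values are a description. Over all 30 libraries without that subtraction, the genes most like the mean z score of the 9 were Pif1 (0.787), Gcat (0.781), Saa3 (0.770), Upp1 (0.754), Mapk13 (0.743), Elane (0.736), Igfbp6 (0.719), Slc25a24 (0.713), H2afx (0.711) and Plekhf1 (0.709). After subtraction they were Rhag (0.716), Fpr2 (0.585), Gclm (0.582), Ccar1 (0.567), Crat (0.560), Lpcat2 (0.549), Itgb3bp (0.537), Pkm (0.537), Gm7308 (0.533) and Eif4g2 (0.533).

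Primary granule genes are made by neutrophil precursors before the secondary granule genes. Of 12 listed, 9 were tested and 3 rose in TLR7.1 Mono over WT Mono (edgeR, adjusted over all genes), beside 1.8% of all genes, with a median log2 fold change of 2.12 over the 9. Elane, neutrophil elastase, ran from 23.4 to 90.5 CPM in TLR7.1 Mono, against 0 to 4.18 CPM in WT Mono (log2 fold change 5.36 ± 0.994, adjusted p = 0.00122, higher in 6 of 6 libraries). Prtn3, proteinase 3, averaged 115 ± 41.1 CPM in TLR7.1 Mono and 26.5 ± 12.9 CPM in WT Mono (SD, n = 6; log2 fold change 2.12 ± 0.468, adjusted p = 0.0077 by edgeR). Both kept their calls in all 12 fits that leave out a mouse, and the means were higher in TLR7.1 Mono on all 3 collection days, for Elane 72.3, 36.1 and 33.0 CPM against 0.981, 4.18 and 0.172 CPM in WT Mono. Ms4a3 was the third, at least 22.2-fold higher with 68 counts in TLR7.1 Mono and 0 in WT Mono (adjusted p = 0.0396 by edgeR), though its libraries overlapped at 0. DESeq2 and the random mouse block called Fcnb in place of Ms4a3. In TLR7.1 RPM over WT RPM none of the 9 passed by edgeR or DESeq2, with 4 at an unadjusted p under 0.05. Unlike Ngp and Ltf, Elane and Prtn3 were present in the monocytes of every TLR7.1 mouse, including 24304 and 24308. Mpo, myeloperoxidase, had 16 counts over all TLR7.1 Mono libraries and 1 over WT Mono.

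In iHPC the primary granule genes split. Against TLR7.1 Mono, 4 of the 9 rose (Ctsg, Ms4a3, Nkg7 and Clec12a) and 3 fell (Elane, Prtn3 and Fcnb). Of all genes, 19.3% rose and 19.4% fell in this comparison. Elane averaged 1.26 ± 1.97 CPM in iHPC and 47.1 ± 24.0 CPM in TLR7.1 Mono (log2 fold change -5.04 ± 1.02, adjusted p = 0.000218 by edgeR). Fcnb, a ficolin, had no count in iHPC and was at least 102-fold lower than in TLR7.1 Mono. Ctsg, cathepsin G, was at 88.0 to 373 CPM in 5 iHPC libraries and at 0 in mouse 24261, and Mpo at 12.3 to 109 CPM in the same 5 and at 0 in that mouse. The basophil and mast cell list was low in the same library, as given above, and that library held the highest Lcn2, Ltf and Ngp of any iHPC. Whether Mpo and Ctsg in iHPC come with the basophil and mast cell transcripts was not tested. Nkg7 is also a T and NK cell gene, and its call was lost without mouse 24107, 24304 or 24308, with the mouse as a block and by DESeq2, which called Ctsg and Clec12a but neither Nkg7 nor Ms4a3 as higher.

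Of the mature neutrophil markers, Ly6g, Cxcr2 and Mmp9 were sparse, while Retnlg was high in some iHPC libraries and Csf3r present in all groups. Ly6g, the antigen the gate excludes, had 4 counts over the iHPC libraries, 7 over TLR7.1 Mono and none in the other 3 groups. Cxcr2, a neutrophil chemokine receptor, had 12 counts in iHPC, 14 in TLR7.1 Mono and none elsewhere, and Mmp9, gelatinase, had 12 counts in iHPC and none elsewhere. Retnlg, a resistin-like gene of mature neutrophils, was at 296 CPM in iHPC of mouse 24380, 137 in 24261 and 59.9 in 24107 and at most 3.37 in the other 3 iHPC libraries, with 8 counts in all TLR7.1 Mono libraries and none in WT Mono or any RPM library. Those 3 iHPC libraries are also the ones with the highest S100a8 (444, 214 and 141 CPM) and S100a9 (458, 264 and 152 CPM), whereas in TLR7.1 Mono S100a8 was at 63.5 CPM or more in every library with Retnlg at 0 to 3.59 CPM. The part of cells with Retnlg in the iHPC levels of S100a8 was not tested. Csf3r, the G-CSF receptor, was at 105 to 162 CPM in iHPC, 35.9 to 67.3 in TLR7.1 RPM, 43.8 to 83.6 in WT RPM, 135 to 220 in TLR7.1 Mono and 205 to 272 in WT Mono.

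**Figure D4:**
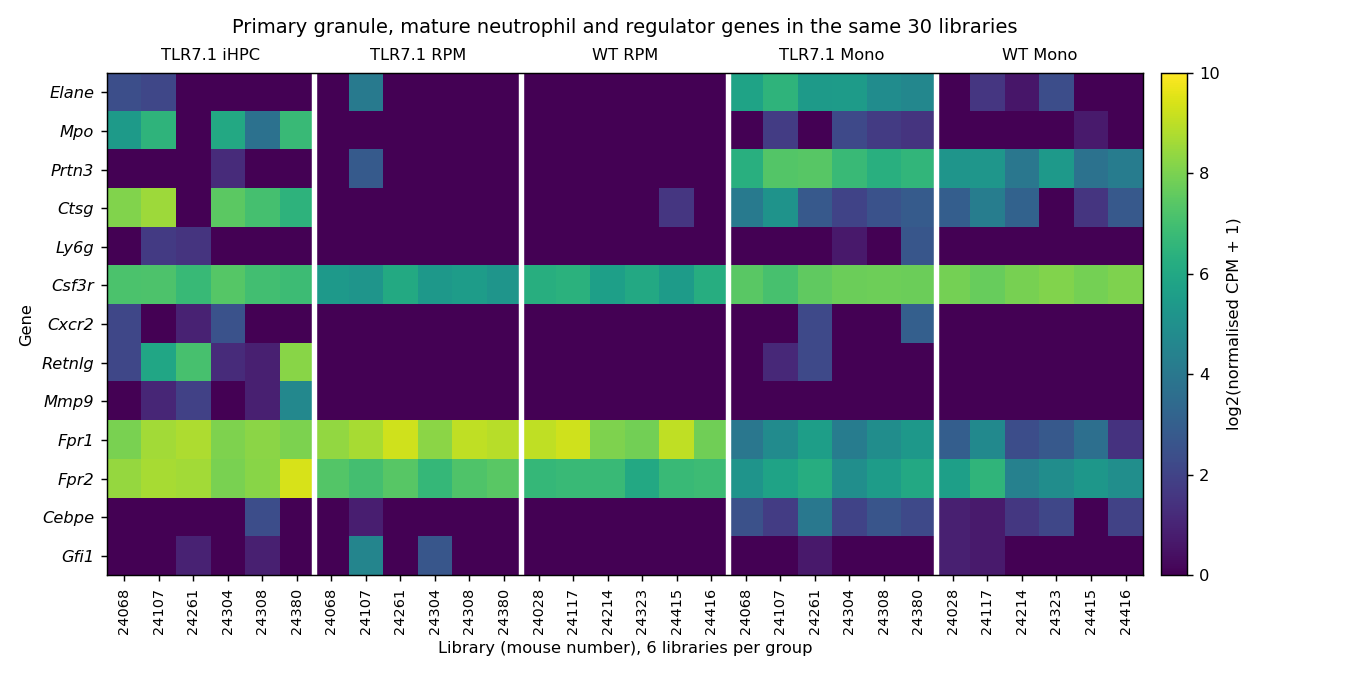
Colour gives log2(normalised CPM + 1) of primary granule genes, mature neutrophil markers and regulators (rows) in the same 30 libraries (columns, by mouse number). Elane and Prtn3 are raised across the TLR7.1 Mono block, Mpo and Ctsg appear in 5 of 6 iHPC libraries, and Retnlg is seen in iHPC of mice 24107, 24261 and 24380, while Ly6g, Cxcr2 and Mmp9 stay dark in most libraries.

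Of 23 listed neutrophil identity genes, 11 were tested. In TLR7.1 Mono over WT Mono 1 rose, beside 1.8% of all genes. This was Fpr1, a formyl peptide receptor, at 29.1 ± 12.4 CPM in TLR7.1 Mono and 9.38 ± 8.84 CPM in WT Mono (log2 fold change 1.62 ± 0.393, adjusted p = 0.0153 by edgeR). Its call was lost in 6 of the 12 fits without a mouse (24028, 24214, 24261, 24323, 24380 or 24416) and with the mouse as a random block. Against TLR7.1 Mono, 6 of the 11 fell in iHPC, beside 19.4% of all genes, and Fpr1 and Fpr2 rose, beside 19.3%. Fpr1 was also high in RPM, at 447 ± 123 CPM in TLR7.1 mice and 401 ± 175 CPM in WT mice, so it does not mark neutrophils in these libraries. Padi4, the histone deiminase of neutrophil extracellular traps, averaged 1.65 ± 1.72 CPM in iHPC and 79.9 ± 28.3 CPM in TLR7.1 Mono (log2 fold change -5.31 ± 0.528, adjusted p = 2.89e-09 by edgeR). Hp, haptoglobin, averaged 48.6 ± 33.9 CPM in iHPC and 812 ± 109 CPM in TLR7.1 Mono, and Trem1, an activating receptor, 2.10 ± 2.06 CPM in iHPC and 45.7 ± 15.9 CPM in TLR7.1 Mono. Against TLR7.1 RPM 7 of the 11 rose in iHPC, beside 13.6% of all genes. Among them were Hp, Trem3 and Anxa1, an annexin of phagocytes with 185 ± 121 CPM in iHPC and 9.66 ± 12.7 CPM in TLR7.1 RPM. The call of Anxa1 was lost by DESeq2. In TLR7.1 RPM over WT RPM Mxd1, a MYC antagonist, rose (56.7 ± 30.4 CPM in TLR7.1 RPM and 14.5 ± 10.7 CPM in WT RPM, adjusted p = 0.00349 by edgeR), and its means were higher on all 3 days.

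Regulators of granulopoiesis were tested for 9 of 12 listed genes. In TLR7.1 Mono over WT Mono none passed by edgeR or DESeq2, with 3 at an unadjusted p under 0.05. Cebpe, whose product drives secondary granule genes, did not pass the filter on low counts and had 54 counts over TLR7.1 Mono, at least 4 in each library, against 15 over WT Mono, and 5, 1 and 0 in iHPC, TLR7.1 RPM and WT RPM. Gfi1, a repressor needed for neutrophil formation, had 1 count in TLR7.1 Mono and 2 in WT Mono. In iHPC 3 regulators rose and 4 fell against TLR7.1 Mono, beside 19.3% and 19.4% of all genes. Nfkbiz, the inducible nuclear cofactor IκBζ that is known to act on Lcn2, averaged 561 ± 120 CPM in iHPC and 116 ± 17.3 CPM in TLR7.1 Mono (log2 fold change 2.27 ± 0.218, adjusted p = 2.86e-10 by edgeR), and 59.6 ± 25.4 CPM in TLR7.1 RPM. In RPM it was the 1 regulator with a genotype call, as it fell in TLR7.1 RPM, against 118 ± 39.8 CPM in WT RPM (log2 fold change -0.93 ± 0.238, adjusted p = 0.0127 by edgeR). Cebpd averaged 33.2 ± 14.0 CPM in iHPC and 164 ± 7.79 CPM in TLR7.1 Mono, and Irf8, a monocyte and dendritic cell factor, 95.9 ± 23.4 CPM in iHPC and 367 ± 35.8 CPM in TLR7.1 Mono.

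Other S100 genes, tested for 6 of 13 listed, gave no call in TLR7.1 Mono over WT Mono by edgeR or DESeq2, with 0 at an unadjusted p under 0.05. Against TLR7.1 Mono 5 of the 6 fell in iHPC, beside 19.4% of all genes. S100a10, a partner of annexin A2, averaged 52.2 ± 37.9 CPM in iHPC and 366 ± 36.7 CPM in TLR7.1 Mono (log2 fold change -2.73 ± 0.448, adjusted p = 1.01e-05 by edgeR). In TLR7.1 RPM over WT RPM S100a4 and S100a6 rose, with 67.0 ± 58.5 and 86.1 ± 63.0 CPM in TLR7.1 RPM, against 15.4 ± 18.3 and 23.8 ± 26.6 CPM in WT RPM (adjusted p = 0.0421 and 0.0188 by edgeR). The S100a4 call was lost with the mouse as a random block, with collection day as a term and without any of mice 24107, 24214, 24304, 24323, 24415 and 24416, and that of S100a6 without 24107 or 24415. Markers of other cells moved in the same comparison: 5 of 12 erythroid genes rose, 1 of 10 B and plasma cell genes (Jchain) and 1 of 10 classical monocyte genes (Ms4a4c). So did 3 of 5 tested megakaryocyte and platelet genes (Itga2b, Gp9 and Gp1bb) and 1 of 5 tested basophil and mast cell genes (Cd200r3). Of 10 iHPC gate and Ly6C-low monocyte genes 1 rose and 2 fell, and 1 of 10 red pulp macrophage genes fell. Of all genes, 4.48% rose and 3.77% fell. The summed erythroid markers ran from 3011 to 5877 CPM in TLR7.1 RPM and from 499 to 6070 CPM in WT RPM, the B and plasma cell markers from 961 to 3502 CPM in TLR7.1 RPM and from 289 to 2057 CPM in WT RPM, and the classical monocyte markers from 144 to 543 CPM in TLR7.1 RPM and from 74.9 to 392 CPM in WT RPM. Their part in the S100a4, S100a6 and Mxd1 differences, and in the levels of the 10 genes in RPM, was not tested.

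Receptors and partners of the encoded proteins were tested for 15 of 17 listed genes. In TLR7.1 Mono over WT Mono 1 rose and 1 fell, beside 1.8% and 0.299% of all genes. Tlr4, a receptor for S100A8 and S100A9, averaged 93.2 ± 30.1 CPM in TLR7.1 Mono and 49.6 ± 15.2 CPM in WT Mono (log2 fold change 0.91 ± 0.242, adjusted p = 0.0361 by edgeR), with higher means on all 3 days. Tgfbr1, a TGF-β receptor, averaged 80.4 ± 17.3 CPM in TLR7.1 Mono and 135 ± 15.2 CPM in WT Mono (-0.74 ± 0.203, adjusted p = 0.0439). In Mono the Tlr4 call was lost in 8 and the Tgfbr1 call in 10 of the 12 fits without a mouse. In TLR7.1 RPM over WT RPM 1 rose and 1 fell, beside 4.48% and 3.77% of all genes. Bsg rose (0.63 ± 0.156, adjusted p = 0.00986 by edgeR) and Tgfbr1 fell (-0.94 ± 0.212, adjusted p = 0.00486). Tlr4 was not called there (-0.63 ± 0.248). The difference between the genotype effects of RPM and Mono was called for Tlr4 alone of the 15 (-1.54 ± 0.346, adjusted p = 0.0240 by edgeR), beside 0.689% of all genes. Against TLR7.1 Mono 6 rose and 6 fell in iHPC, beside 19.3% and 19.4% of all genes. Pecam1, which encodes CD31 on which iHPC were gated and which binds CD177, averaged 516 ± 78.6 CPM in iHPC and 13.0 ± 4.81 CPM in TLR7.1 Mono, and Emb, embigin, another receptor for S100A9, 30.5 ± 26.7 CPM in iHPC and 829 ± 57.3 CPM in TLR7.1 Mono.

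Other secreted antimicrobial and acute-phase genes were tested for 10 of 16 listed. Of these, 1 rose and 1 fell in TLR7.1 Mono over WT Mono, beside 1.8% and 0.299% of all genes. In TLR7.1 Mono over WT Mono Saa3, a serum amyloid A gene, rose to 181 ± 85.1 CPM in TLR7.1 Mono, against 20.9 ± 23.1 CPM in WT Mono, with all libraries higher (log2 fold change 3.12 ± 0.797, adjusted p = 0.0316 by edgeR), and Lyz1, a lysozyme gene, fell (73.2 ± 48.7 CPM in TLR7.1 Mono and 204 ± 57.5 CPM in WT Mono, adjusted p = 0.0483 by edgeR). DESeq2 called neither, and the Saa3 call was lost in 7 and the Lyz1 call in 9 of the 12 fits without a mouse. Saa3 averaged 171, 143 and 231 CPM in TLR7.1 Mono on the 3 days, against 20.1, 58.5 and 8.95 CPM in WT Mono. Lyz1 shares sequence with Lyz2, and reads may have been split between them. Against TLR7.1 Mono 7 of the 10 fell in iHPC, beside 19.4% of all genes. Chil3, a chitinase-like protein, averaged 7.50 ± 6.81 CPM in iHPC and 782 ± 75.6 CPM in TLR7.1 Mono (log2 fold change -6.63 ± 0.417, adjusted p = 1.13e-14 by edgeR).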

How the data were processed

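RNA of 500 sorted cells per library was amplified with the SMART-Seq v4 kit and made into libraries with Nextera XT, per the labels' protocols. The authors deposited raw read counts per Ensembl gene for 30 libraries, made with HTSeq 0.4.1, TopHat and Bowtie among other tools and against the build NCBIM37, going by the submitters' processing notes, which give no roles. Strand use is not given in the sources used here, so overlapping antisense genes cannot be told apart. Symbols and exon lengths came from GENCODE M21 by Ensembl identifier: 32919 of 37991 identifiers matched, with 99.1% of the counts.

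Counts were scaled by TMM and tested with edgeR 4.0.16 (R 4.3.3) over all 5 groups by the quasi-likelihood test, with edgeR's filter on low counts and Benjamini-Hochberg adjustment over 11030 genes (threshold 0.05). SEs are those of the fitted log2 fold changes. Where a group held no count, a fold is a bound at 3 counts over the group. Where it held 1 to 3, the pooled ratio has an exact 95% interval. Neither interval nor floor covers more than counting error.

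The 10 genes and all lists were chosen with earlier results of these data known. From each other list, up to 3 called genes with the largest log2 fold change and at least 20 CPM were named, with the defining neutrophil markers. Others, named to spell out a count or a loss of a call, were chosen after their values were seen. Libraries with 1 mouse number come from 1 animal, which the labels give, so they are paired by design. Their residuals correlated at -0.0774 to 0.2089, and 3 of 24 pairs passed 0.1. The alternatives were DESeq2 1.42.0 (its size factors, its test), no filter, the groups compared alone, collection day, thinning to 95002 counts and leaving out each mouse. The mouse was also fitted as a fixed block in edgeR, and as a random block in limma 3.58.1 on log values. The test was tried on simulated counts with known changes.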

Additional observations from a re-analysis of the deposited data

Results flagged for a closer look

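Ltf in TLR7.1 iHPC stood apart in 1 library. It was at 61.07 CPM in mouse 24261, while the other 5 iHPC libraries held 0 to 3.522 CPM. The gap to the nearest library took up 0.6345 of the range on the log2(CPM + 1) scale, above Dixon's critical value for 6 samples. Of 50 sets of 1 gene in 1 group, 28 had a library with at least 10 counts and were examined, and this was the 1 found. For independent sets of normal values chance gives about 1 in 20. These 28 sets share libraries and mice, so that rate need not hold here. The 1 found is not told apart from chance, and nothing further is read from it.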

How the results depend on the processing

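Among 1155 fitted log2 fold changes of the genes under the alternatives, 1091 kept their side of the threshold, 29 gained a call and 35 lost one. None that was called in the fit over all 5 groups reversed. Direction was not checked for values without a call there. S100a8 for iHPC minus Mono, at 0.06 in that fit, was negative with the random block. Counts of called genes moved by over 1.5 times in 19 of 138 values. Medians of those of the 10 genes that each fit tested moved by over the replicate spread in 27 of 137. The filter on low counts was applied anew where libraries were left out or counts thinned, so the genes behind a median can differ. Other causes were not tested, except that thinning removes counts. Thinning to the smallest library left 214 called genes for iHPC minus Mono (4270 before), 109 for iHPC minus RPM (2993), 0 for the genotype in Mono (232), 2 in RPM (910), 333 for TLR7.1 RPM minus Mono (5135), 389 for WT RPM minus Mono (5098) and 0 for the difference of genotype effects (76). Thinned medians of the genes still tested were -0.32 for the genotype in Mono (5.47 before), 1.21 in RPM (2.75), -7.06 for WT RPM minus Mono (-0.02) and -0.96 for the difference (-3.91). With the groups compared alone, 1753, 737 and 160 genes were called for iHPC minus RPM and for the genotype in Mono and RPM. Medians of the genes still tested were then -8.27 for TLR7.1 and -10.36 for WT RPM minus Mono. In RPM no gene of the 9 was then left to test for the genotype. Without the filter Ltf was tested too, and medians were 6.38 and 2.15 for the genotype in Mono and RPM, and -6.55 and -0.52 for TLR7.1 and WT RPM minus Mono. DESeq2 called 209 genes for the difference and gave 1.04 as the median in RPM by genotype, and collection day as a term gave 3.73.

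The random replicate block also changed the method, to limma on log values. With it the medians were 0.73 for iHPC minus RPM, 0.25 for the genotype in RPM and -3.14 for the difference. That fit called 403 genes for the genotype in Mono and 162 for the difference. With a fixed replicate block the median of the difference was -2.94. Beyond the calls given with each comparison, Lcn2 lost its call for WT RPM minus Mono with the random block, and Lrg1 gained one there with the fixed block. The block cannot be fitted as fixed for the genotype effects.

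Leaving out 1 mouse at a time gave medians of -2.56 to -1.88 for iHPC minus Mono, 2.38 to 3.97 for iHPC minus RPM, 5.2 to 6.16 for the genotype in Mono, 1.87 to 3.08 in RPM, -7.29 to -5.02 for TLR7.1 RPM minus Mono, -2.28 to 0.00 for WT RPM minus Mono and -4.97 to -2.24 for the difference. The highest iHPC minus RPM median came without 24107. Called genes ran from 29, without 24415, to 145, without 24117, for the difference, with 44 without 24261 or 24416 and 46 without 24308. For the genotype in RPM they ran from 584, without 24214, to 1354, without 24117. Without 24323, whose RPM library held 95002 counts, 818 were called.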
